A study of Rattus norvegicus with 20 samples.

Results

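The transcripts of 10 genes of the NRF2 antioxidant response and of iron handling were followed in dorsal root ganglia (DRG) of rats with chronic constriction injury (CCI) of the sciatic nerve. The members were found by gene symbol among the 39747 genes of the deposited count table, and all 10 were listed there: Hmox1, Nqo1, Gclc, Gclm, Srxn1, Slc7a11, Keap1, Fth1, Tfrc, and Slc40a1. RNA of whole DRG had been sequenced from young female Sprague-Dawley rats without a genetic modification that were fed either an AIN-93G-based soy oil diet (SOD) or a modified version with fish oil as the source of n-3 fatty acids (FOD). All groups ate their diet for 4 weeks before surgery, and 4 loose chromic gut ligatures were then tied around the left sciatic nerve (CCI) or the nerve was exposed and not tied (CT, sham). The left DRG gave 4 libraries of SOD-CT, 3 of FOD-CT, 3 of SOD-CCI, and 4 of FOD-CCI, and the right, contralateral DRG of 3 SOD-CCI and 3 FOD-CCI rats gave 6 more, so that 3 rats of each diet could be compared with themselves. The deposited design text has the diets continue for 4 further weeks, whereas the publication places the removal of these DRG 1 week after CCI, and no label gives the time, so the time of collection is not settled here. The ganglia were sequenced whole, so a value is a mixture over neurons, glia, and other cells, and only CCI rats gave right DRG.

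NRF2 (gene Nfe2l2) is a transcription factor that KEAP1 holds in the cytoplasm and marks for degradation until electrophiles or peroxides modify KEAP1. It then enters the nucleus, pairs with small MAF proteins, and binds the antioxidant response element (ARE) of genes for glutathione synthesis, peroxide repair, and quinone and heme breakdown. Iron is taken up through the transferrin receptor, stored in ferritin, and leaves the cell through ferroportin, and iron that is not stored feeds the lipid peroxidation that drives ferroptosis, a form of cell death known from neurons and glia after injury.

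Library totals ran from 22547190 to 54437581 counts. SOD-CT replicate 1 held skeletal muscle transcripts (8 markers summed to 101000 CPM, read counts scaled to a common library total, against 5.01 to 20760 in the other 19 libraries), so that its plain CPM is understated for genes that muscle hardly expresses. FOD-CT replicate 2 (20760 CPM) and SOD-CT replicate 4 (5678 CPM) held fewer of them. Both were kept in the fits below that leave out 3 libraries with muscle or spinal cord transcripts. FOD-CT replicate 1, FOD-CCI replicate 1, and the right DRG of FOD-CCI rat 1 held spinal cord glia transcripts (6 markers summed to 2854, 2185, and 3558 CPM, against 9.91 to 67.2 in the others), and the last of these was poor in neuron markers (1872 CPM, against 4128 to 19050). The library labelled FOD-CCI replicate 1 was unlike the other injured libraries in part of the injury genes checked. Atf3, a gene that axon injury is known to induce in sensory neurons, was at 3.27 CPM in it. In the other 3 FOD-CCI libraries Atf3 was at 202, 501, and 334 CPM. Npy, Gal, Gap43, Jun, and Csf1 were also lower in it than in FOD-CCI replicates 2 and 3. Ecel1 (45.3 CPM) lay between these replicates (7.22 and 66.9 CPM). Gal, Jun, Gap43, and Ecel1 were higher in it than in the right DRG of its rat (ratios 3.6, 1.69, 1.33, and 1.31). Atf3, Npy, and Csf1 were lower. The main results of FOD-CCI are therefore given with and without this library. Red cell transcripts were most abundant in FOD-CCI replicate 2 (8 markers summed to 10600 CPM) and SOD-CT replicate 4 (3936 CPM), and lay between 43.3 and 1959 CPM elsewhere.

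Sequence upstream of the members was examined first, because the members are grouped by a shared regulator. Of the 10 genes, 8 had a promoter window in the RefSeq table (GRCr8, 250 bases before to 50 bases after the start), and Hmox1 and Fth1 were not matched. The ARE core, searched as TGACNNNGC on both strands, was present in 1 of these 8 windows, that of Gclm, and in 12.1% of all 33469 windows. The AP-1 site, searched as TGANTCA, which reads alike on both strands, was present in 1 of the 8, that of Srxn1, and in 7.33% of all windows. An AP-1 site is the known target of JUN and FOS family factors, and its letters can lie inside an ARE core, as they did in 0.415% of all windows. In the Srxn1 window the site occurred at 2 positions, which was the case in 139 windows, and neither lay inside an ARE core as searched. The site at -5 is followed by GC (TGAGTCAGC) and so differs from the searched core only at its fixed C. Looser letters for the core were not searched. The windows of Srxn1 and Gclm are printed because Srxn1 had the largest difference between injured and uninjured side among the 9 members that passed the filter on low counts and Gclm the one that held an ARE core, and that of Txnrd1, an NRF2-linked enzyme described with them, because its second annotated start also held one. They run from 250 bases before to 10 bases after the start, 5′ to 3′ on the strand of the gene, in GRCr8 coordinates, and capitals mark the AP-1 sites (Srxn1, at -62 and -5 from the start) and the reverse complement of an ARE core (Gclm, at -172, and Txnrd1, at -78).
Srxn1, chr3:161064562-161064821, plus strand: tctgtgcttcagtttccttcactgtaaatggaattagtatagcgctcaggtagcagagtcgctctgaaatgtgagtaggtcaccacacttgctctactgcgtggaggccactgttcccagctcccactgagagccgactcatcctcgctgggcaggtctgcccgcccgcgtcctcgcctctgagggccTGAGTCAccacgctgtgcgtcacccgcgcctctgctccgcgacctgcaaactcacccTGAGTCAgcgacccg
Gclm, chr2:213031885-213032144, plus strand: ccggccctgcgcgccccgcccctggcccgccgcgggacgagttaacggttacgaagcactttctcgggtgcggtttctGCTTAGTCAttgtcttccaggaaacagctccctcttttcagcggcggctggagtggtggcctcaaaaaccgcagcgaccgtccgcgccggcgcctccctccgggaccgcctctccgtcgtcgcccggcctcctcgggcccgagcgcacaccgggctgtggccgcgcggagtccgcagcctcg
Txnrd1, chr7:22755895-22756154, minus strand: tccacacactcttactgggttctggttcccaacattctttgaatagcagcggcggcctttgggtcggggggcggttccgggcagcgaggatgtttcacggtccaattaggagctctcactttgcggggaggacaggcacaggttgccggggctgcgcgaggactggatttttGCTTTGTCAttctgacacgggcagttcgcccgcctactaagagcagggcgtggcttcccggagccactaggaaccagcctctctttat

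A match is a description of letters and not of a bound site. For the other members without a match, Slc7a11, Keap1, Gclc, Slc40a1, Tfrc, and Nqo1, it means only that these letters are not in this window. Of the 23 NRF2-linked enzymes listed beside the members, 20 had a window, 8 of them with an ARE core and 5 with an AP-1 site. Of the 23 iron handling genes, 19 had a window, with 2 and 1. These counts are of genes with a match in any of their windows, whereas the percentages above are of single windows.

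On the deposited FPKM scale, which accounts for gene length, the members spanned several orders of magnitude over the 20 libraries. Fth1, the heavy chain of ferritin with its ferroxidase activity, stood far above the rest (8492 ± 2503 FPKM, SD, n = 20, range 4466 to 14040). Gclm, the modifier subunit of the enzyme for the limiting step of glutathione synthesis, followed at 48.3 ± 11.7 FPKM. Tfrc (36.0 ± 14.3), Nqo1 (35.1 ± 8.20), and Srxn1 (32.7 ± 17.1 FPKM) were within 1 SD of each other, and Gclm overlapped all of them in range. Keap1 was the steadiest member (23.1 ± 3.03 FPKM). Hmox1 (14.2 ± 10.8) and Gclc, the catalytic subunit paired with Gclm (12.96 ± 2.56 FPKM), did not differ beyond their spread. The lowest were Slc40a1 (5.02 ± 3.42) and Slc7a11 (1.15 ± 1.85 FPKM), the latter listed at 0 in 1 library. Over the 6 groups the mean of Fth1 ran from 6434 FPKM in SOD-CCI to 11470 FPKM in the right DRG of FOD-CCI rats, whereas the highest group mean of any other member was 58.7 FPKM, that of Gclm in the right DRG of SOD-CCI rats.

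**Figure D1:**
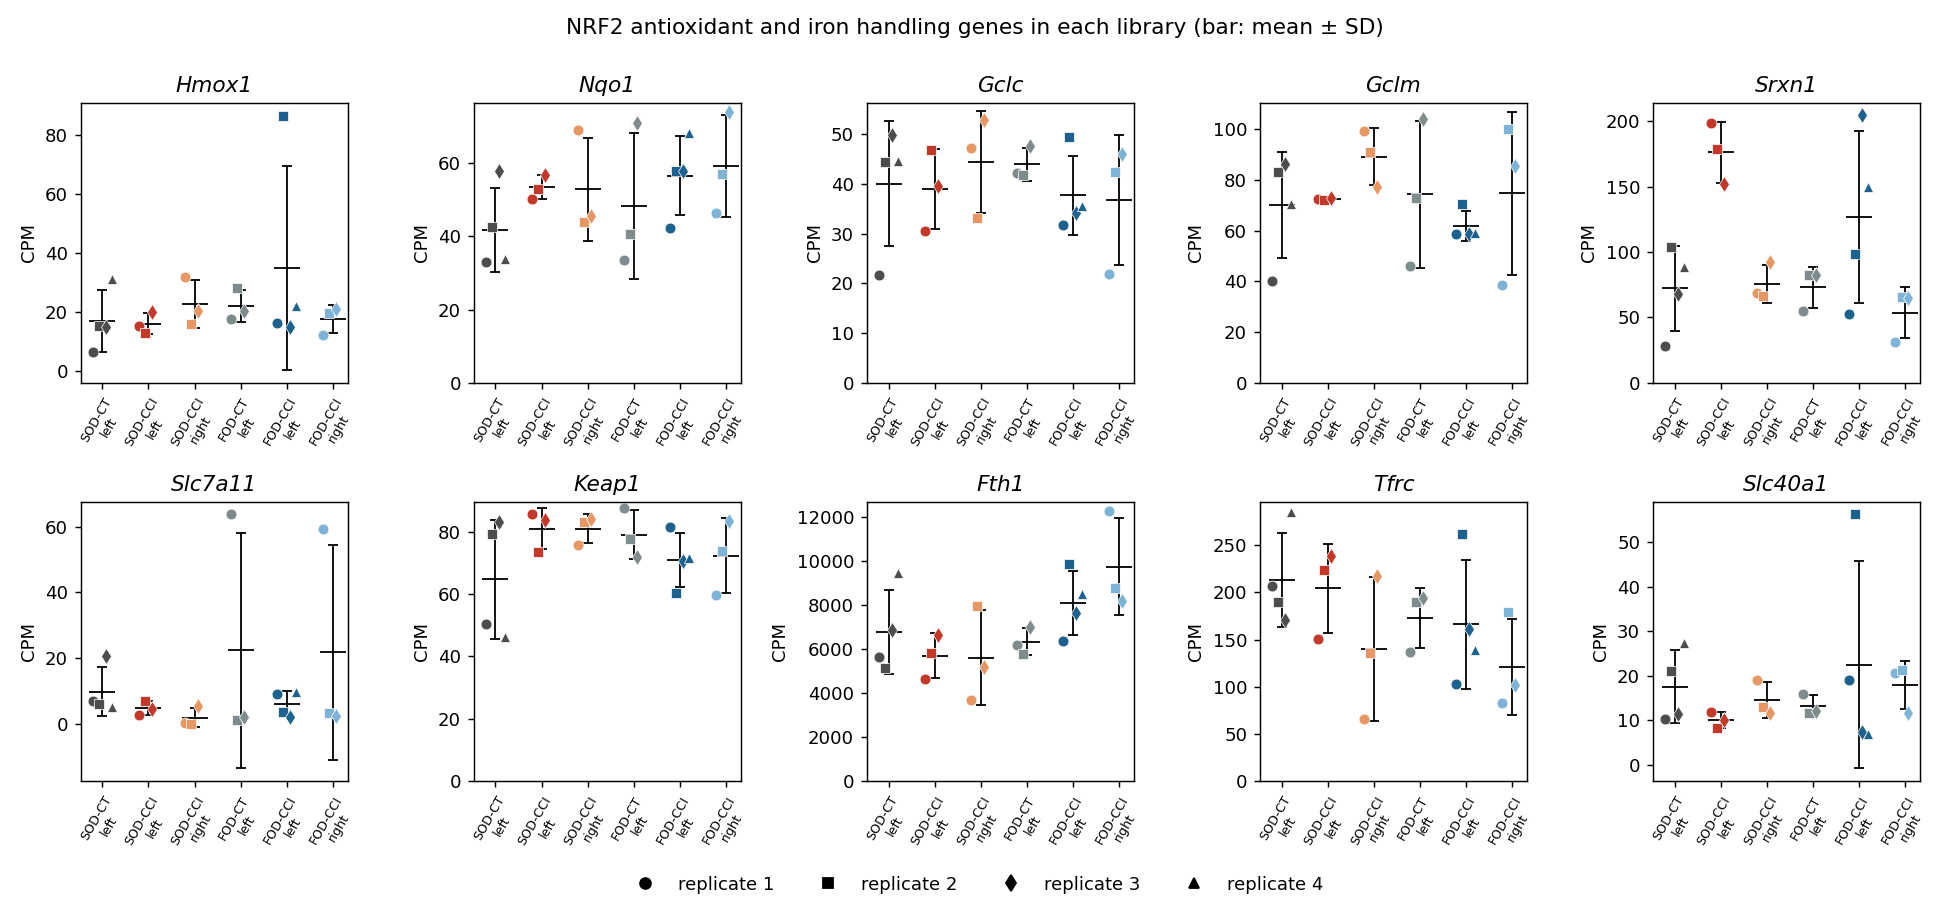
CPM of each member (vertical axes, linear, one scale per gene) in the 6 groups (horizontal axes); symbols mark the replicate number and black bars the group mean ± SD (n = 3 or 4). The 3 SOD-CCI libraries of Srxn1 (152 to 199 CPM) lie above all SOD-CT libraries, whereas Hmox1 and Slc40a1 are highest in FOD-CCI replicate 2 and Slc7a11 in 2 libraries with spinal cord transcripts.

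For injured against sham and injured against uninjured DRG, Srxn1 was the member with the largest difference relative to its error, and the members did not share a direction. No member passed the call rule used throughout (edgeR quasi-likelihood test, fold change of 1.2 or more with a Benjamini-Hochberg adjusted p up to 0.1 over all tested genes). For CCI against sham on SOD, 0 of 10 members were called, as were 0 of all 14484 tested genes (0%), and 1 member, Srxn1, had an unadjusted p under 0.05, as did 13.8% of all genes. Of the 10 members 3 had a positive log2 fold change (log2FC), as did 49.3% of all genes, their median log2FC was -0.18, and that of all genes was -0.01. In FOD-CCI against FOD-CT, likewise 0% of the 14484 genes were called, 5 of 10 members and 50.8% of all genes had a positive log2FC (median 0.12, all genes 0.01), the groups of 0 members and of 4.59% of all genes did not overlap, and no member and 4.52% of all genes had an unadjusted p under 0.05. DESeq2 called 594 genes in the first comparison, 1 of them a member, and 21 in the second, none of them a member. Without the library labelled FOD-CCI replicate 1, 0 members and 0.294% of 14620 genes were called in FOD-CCI against FOD-CT, and 6 of 10 members and 49.5% of all genes had a positive log2FC (median 0.26, all genes 0.00). Then 1 member, Srxn1, and 10.3% of all genes had an unadjusted p under 0.05, and the groups of 3 members (Srxn1, Fth1, and Keap1) and of 17.4% of all genes did not overlap.

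Srxn1 encodes sulfiredoxin, which returns overoxidized peroxiredoxins to their active form. Its level was 28.3, 104, 67.6, and 88.9 CPM in the 4 SOD-CT libraries and 199, 179, and 152 CPM in the 3 SOD-CCI libraries. All SOD-CCI libraries were above all SOD-CT libraries, which was so, in either direction, for 17.5% of tested genes. The log2FC was 1.19 (SE 0.39, edgeR unadjusted p = 0.00897, adjusted p = 0.271, and 0.092 to 0.647 over all fits, the lowest from DESeq2). Without SOD-CT replicate 1, the muscle-rich library in which Srxn1 was lowest, it was 0.99. On the fish oil diet Srxn1 was at 55.1, 82.2, and 82.4 CPM in FOD-CT and at 52.8, 98.7, 205, and 150 CPM in FOD-CCI. Here 3 FOD-CCI libraries were above all FOD-CT libraries, and the library labelled FOD-CCI replicate 1 was below them. The log2FC was 0.81 (SE 0.40, edgeR adjusted p = 1) with that library and 1.07 (SE 0.34, edgeR unadjusted p = 0.00793, adjusted p = 0.262) without it.

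Within CCI rats the injured left DRG was compared with the uninjured right DRG, so that diet and animal were shared. Srxn1 was higher on the left in 6 of 6 rats. SOD-CCI rats 1, 2, and 3 had 199, 179, and 152 CPM on the left and 68.3, 66.0, and 92.4 CPM on the right, ratios of 2.91, 2.71, and 1.64. FOD-CCI rats 1, 2, and 3 had 52.8, 98.7, and 205 CPM on the left and 31.0, 65.5, and 64.5 CPM on the right, ratios of 1.70, 1.51, and 3.18. Among all genes, every rat of the diet went one way in 41% on SOD and in 23.2% on FOD. The log2FC of left against right was 1.18 on SOD (SE 0.25, edgeR with the rat as a block, unadjusted p = 0.00113, adjusted p = 0.188) and 1.02 on FOD (SE 0.25, edgeR unadjusted p = 0.00285, adjusted p = 0.522). Without FOD-CCI rat 1, that of FOD was 1.13 (SE 0.29, edgeR adjusted p = 0.18), and leaving out each rat in turn it ran from 0.73 to 1.24. Under the call rule 0 of 9 tested members were called on either diet, beside 0.131% of 14549 genes on SOD (19 genes) and 0.0137% on FOD (2 genes). An unadjusted p under 0.05 was reached by 2 members, Srxn1 and Tfrc, on each diet, and by 8.48% and 6.96% of genes. Without FOD-CCI rat 1, 0 members and 0.914% of 14992 genes were called on FOD, and Gclm (log2FC -0.53, SE 0.20, edgeR adjusted p = 0.333) joined these 2 members at an unadjusted p under 0.05, which 12% of genes then had. DESeq2 called Srxn1 on both diets (adjusted p = 0.00162 and 0.0182), among 472 genes on SOD and 264 on FOD. On SOD edgeR called it without the filter on low counts (adjusted p = 0.0426), among 220 genes, and without FOD-CCI rat 1 (adjusted p = 0.0412). Leaving out 1 rat, the number of genes called on SOD ran from 0 to 471. Without the rat as a block the adjusted p of Srxn1 was 0.819 on SOD and 1 on FOD. The difference between the diets in the left to right change was -0.16 (SE 0.35, edgeR adjusted p = 0.997), a test in which 0 of 9 members and 0% of genes were called, 2.91% of genes and 0 members had an unadjusted p under 0.05, and DESeq2 called 60 genes. The diet by injury interaction over left DRG was -0.37 (SE 0.55, adjusted p = 0.914). A p of this size does not show that the diets act alike.

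Markers of other cells moved beside Srxn1 in part. The 10 macrophage markers summed to 219 to 354 CPM in SOD-CCI and to 39.3 to 96.8 CPM in the right DRG of the same rats, but SOD-CT reached 228 CPM and FOD-CCI replicate 1, with low Srxn1, had 173 CPM. On FOD they summed to 173, 377, and 382 CPM on the left and 337, 145, and 265 CPM on the right of rats 1, 2, and 3. The 8 neuron markers summed to 15880 to 19050 CPM in SOD-CCI and to 15880 to 17640 CPM on the right, and to 4128 to 17080 CPM in SOD-CT. On FOD they summed to 12050, 11950, and 17960 CPM on the left and 1872, 15180, and 15020 CPM on the right of rats 1, 2, and 3, and to 7199 to 16070 CPM in FOD-CT. In FOD-CCI rat 1, 1 of the 6 rats with more Srxn1 on the left, neuron markers were thus also far higher on the left. Over the 20 libraries Srxn1 went with the summed neuron markers (r = 0.71) and macrophage markers (r = 0.38) and against those of spinal cord glia (r = -0.64), a description over libraries that share depth and composition. The part of these cells in the Srxn1 difference was not tested. In bulk DRG, more cells of a type and more RNA per cell cannot be told apart.

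**Figure D2:**
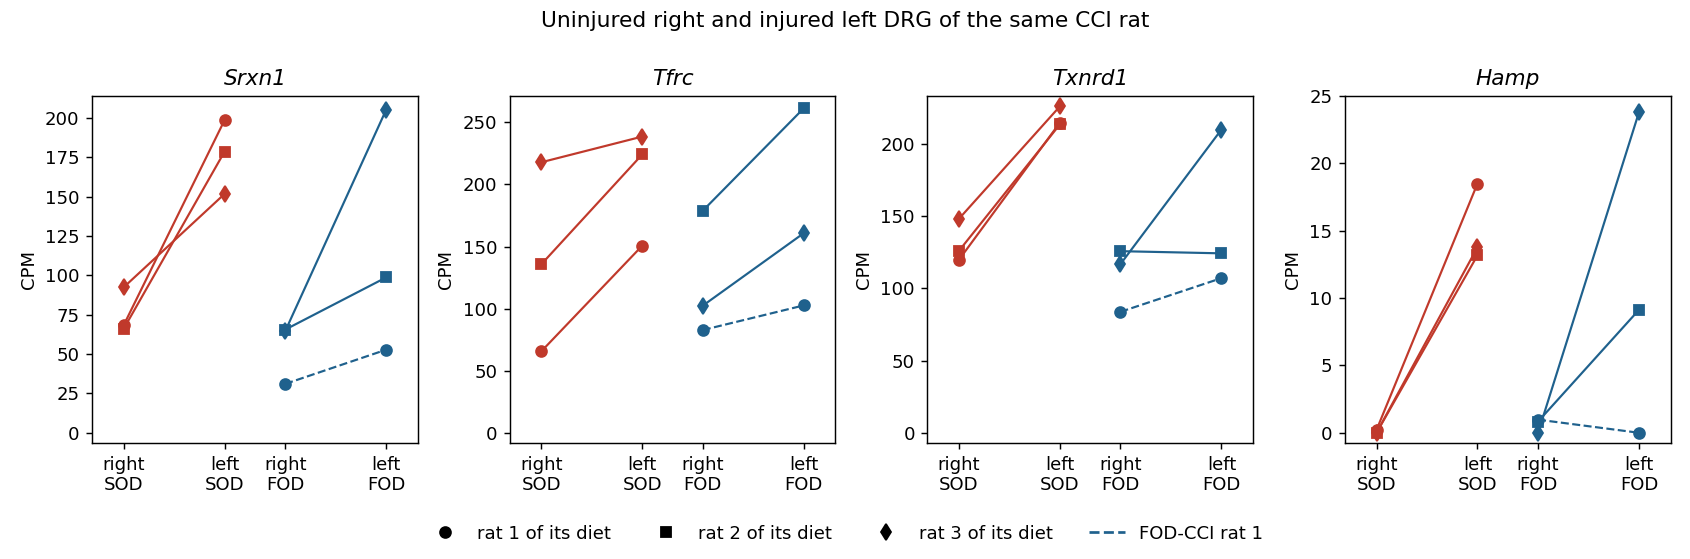
CPM (vertical axes, linear) of Srxn1, Tfrc, Txnrd1, and Hamp in the uninjured right and injured left DRG of the same rat, with a line for each of 3 SOD-CCI (red) and 3 FOD-CCI (blue) rats. The dashed line is FOD-CCI rat 1, whose left library was low in Atf3 (3.27 CPM). All 6 lines of Srxn1 and Tfrc point upward from right to left, and Hamp is near 0 CPM on the right in every rat.

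KEAP1 is the sensor that keeps NRF2 low, and its transcript was among the steadiest. It was at 46.2 to 83.1 CPM in SOD-CT (median 64.9), 73.4 to 85.7 CPM in SOD-CCI, 72.0 to 87.6 CPM in FOD-CT, and 60.3 to 81.4 CPM in FOD-CCI, so that the groups overlapped. The log2FC was 0.16 with injury on SOD (SE 0.20, edgeR adjusted p = 0.746) and -0.12 on FOD (SE 0.20, adjusted p = 1). Its 2 lowest values were the 2 muscle or red cell-rich SOD-CT libraries (50.5 and 46.2 CPM). Over the 20 libraries its level went against the summed red cell markers (Pearson r = -0.68, a description over libraries that share depth and composition).

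Nqo1 encodes a quinone reductase that is a classic readout of NRF2. It was at 33.1, 42.5, 57.8, and 33.8 CPM in SOD-CT, at 50.3, 53.03, and 56.9 CPM in SOD-CCI, at 33.4, 40.6, and 71.0 CPM in FOD-CT, and at 42.3, 57.7, 57.9, and 68.3 CPM in FOD-CCI. Injured and sham groups overlapped on both diets, and the log2FC was 0.18 (SE 0.26) on SOD and 0.26 (SE 0.26) on FOD. Between left and right DRG it was 0.00 (SE 0.21) on SOD and -0.14 (SE 0.21) on FOD, where 3 rats did not share a direction.

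Gclc and Gclm, which together form glutamate-cysteine ligase, were followed as a pair, and their log levels correlated at r = 0.67 over the 20 libraries. Gclc was at 21.6 to 49.8 CPM in SOD-CT and 30.6 to 46.7 CPM in SOD-CCI, and at 41.9 to 47.7 CPM in FOD-CT and 31.8 to 49.4 CPM in FOD-CCI. The log2FC of Gclc was -0.17 (SE 0.21) on SOD and -0.18 (SE 0.21) on FOD. Gclm was at 40.2, 82.9, 86.1, and 70.5 CPM in SOD-CT, 72.6, 71.9, and 72.9 CPM in SOD-CCI, 45.97, 72.8, and 104 CPM in FOD-CT, and 58.6, 70.6, 58.6, and 58.9 CPM in FOD-CCI. The 4 FOD-CCI libraries lay just below the 3 SOD-CCI libraries (log2FC -0.17, SE 0.24, edgeR adjusted p = 0.94), a separation without overlap that 15.2% of tested genes had. Within rats, Gclm was lower on the left in 3 of 3 SOD-CCI rats (ratios 0.732, 0.790, and 0.946). It was lower in 2 of 3 FOD-CCI rats (0.705 and 0.687, against 1.52 in rat 1, whose right DRG was poor in neuron markers). Every SOD-CCI rat went one way in 41% of all genes. The log2FC of Gclm for left against right was -0.34 on SOD (SE 0.25, edgeR adjusted p = 0.804) and -0.14 on FOD (SE 0.26, edgeR adjusted p = 0.933, and -0.53 without rat 1). Gclm went with the summed neuron markers (r = 0.69) and against those of spinal cord glia (r = -0.75).

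Slc7a11, or xCT, imports cystine for glutathione synthesis and is the transporter whose block sets off ferroptosis. It was at 6.89, 6.04, 20.8, and 5.19 CPM in SOD-CT, 2.71, 6.88, and 4.52 CPM in SOD-CCI, 63.8, 1.11, and 1.96 CPM in FOD-CT, and 9.04, 3.59, 2.11, and 9.74 CPM in FOD-CCI. The right DRG had 0.287, 0, and 5.21 CPM in SOD-CCI rats and 59.5, 3.30, and 2.29 CPM in FOD-CCI rats. Its 2 highest values, 63.8 and 59.5 CPM, were in 2 of the 3 libraries with spinal cord glia transcripts, and the other of these, FOD-CCI replicate 1, had 9.04 CPM. The log2FC of FOD-CCI against FOD-CT was -1.74 (SE 1.02, edgeR adjusted p = 1), and without the 3 libraries with muscle or spinal cord transcripts it was 1.72 (SE 0.76, edgeR adjusted p = 0.317). Leaving out FOD-CT replicate 1 alone gave 1.99. For FOD-CT against SOD-CT it was 0.98 (SE 1.01) and -2.73 (SE 0.79, edgeR adjusted p = 1) without them. In SOD-CCI against SOD-CT it was -1.20 (SE 1.05, edgeR adjusted p = 0.623). The gene did not pass the filter on low counts in the comparisons with right DRG. Fitted without it, the log2FC of left against right was 2.96 on SOD (SE 1.11, edgeR adjusted p = 0.517), where the right libraries held few or no counts, and -0.81 on FOD (SE 0.89, edgeR adjusted p = 1).

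Hmox1, the inducible enzyme that opens heme and frees its iron, had its highest level in 1 library. It was at 6.54, 15.1, 14.8, and 31.4 CPM in SOD-CT, 15.4, 12.9, and 20.0 CPM in SOD-CCI, 17.8, 28.0, and 20.2 CPM in FOD-CT, and 16.2, 86.6, 14.8, and 22.1 CPM in FOD-CCI. The 86.6 CPM was in FOD-CCI replicate 2, the library richest in red cell transcripts, and without it the FOD-CCI libraries lay within the range of FOD-CT and SOD-CT together. Right DRG had 32.0, 16.1, and 20.5 CPM in SOD-CCI rats and 12.2, 19.8, and 20.9 CPM in FOD-CCI rats. In FOD-CCI against SOD-CCI the log2FC was 1.19 (SE 0.60, edgeR unadjusted p = 0.0663, adjusted p = 0.859), 0.19 (SE 0.31) without the 2 libraries richest in red cell transcripts, and 1.43 (SE 0.60, edgeR unadjusted p = 0.0333, adjusted p = 0.976) without FOD-CCI replicate 1. In FOD-CCI against FOD-CT it was 0.69 (SE 0.59) and turned to -0.30 (SE 0.31) without them, and in SOD-CCI against SOD-CT -0.19 (SE 0.58) and 0.27 (SE 0.31). Left against right, Hmox1 was lower in 3 of 3 SOD-CCI rats (ratios 0.481, 0.806, and 0.975) and higher in 2 of 3 FOD-CCI rats (1.33, 4.38, and 0.709). Every SOD-CCI rat went one way in 41% of all genes.

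Slc40a1, or ferroportin, is the only known exporter of iron from mammalian cells, and it shared this pattern (r = 0.59 with Hmox1 over 20 libraries). Levels were 10.2, 21.05, 11.4, and 27.5 CPM in SOD-CT, 11.8, 8.19, and 10.05 CPM in SOD-CCI, 16.0, 11.5, and 12.1 CPM in FOD-CT, and 19.1, 56.3, 7.42, and 6.93 CPM in FOD-CCI. Its 2 highest values, 56.3 and 27.5 CPM, were the 2 libraries richest in red cell transcripts, FOD-CCI replicate 2 and SOD-CT replicate 4. The 2 remaining FOD-CCI libraries that carried high Atf3 had the lowest values of all 20. The log2FC of FOD-CCI against SOD-CCI was 1.24 (SE 0.62, edgeR unadjusted p = 0.0664, adjusted p = 0.859) 0.20 (SE 0.41) without the 2 red cell-rich libraries, and 1.31 (SE 0.67) without FOD-CCI replicate 1. That of FOD-CCI against FOD-CT was 0.82 (SE 0.61) and -0.21 (SE 0.41) without them, and that of SOD-CCI against SOD-CT was -0.96 (SE 0.61, edgeR adjusted p = 0.487) and -0.69 (SE 0.41) without them. Left against right it was lower in 3 of 3 SOD-CCI rats (ratios 0.619, 0.637, and 0.873, log2FC -0.56, SE 0.38, edgeR adjusted p = 0.779). Every SOD-CCI rat went one way in 41% of all genes. FOD-CCI rats did not share a direction (ratios 0.921, 2.66, and 0.639), and their log2FC was 0.22 (SE 0.39, edgeR adjusted p = 0.929). The part of red cells or of the cells that clear them in the values of Hmox1 and Slc40a1 was not tested.

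**Figure D3:**
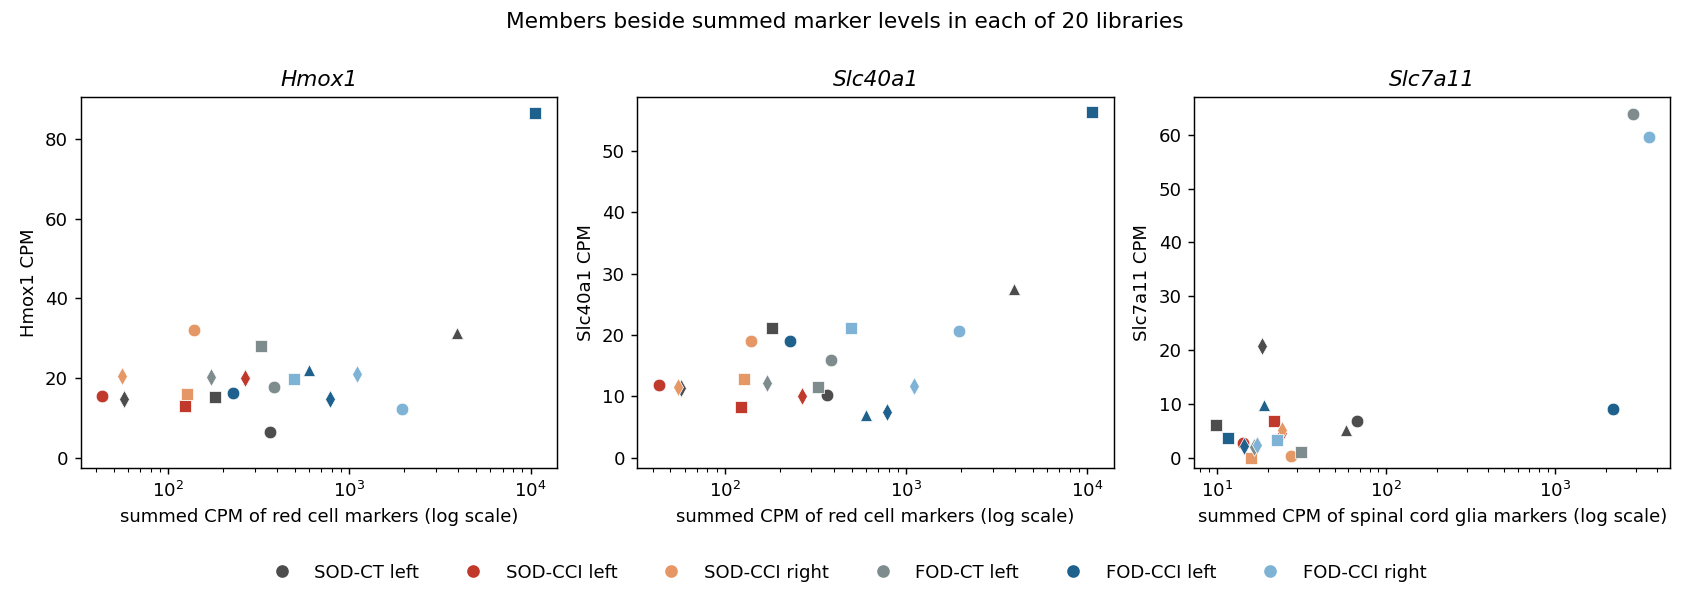
CPM of Hmox1, Slc40a1, and Slc7a11 (vertical axes, linear) against the summed CPM of 8 red cell markers or 6 spinal cord glia markers (horizontal axes, log scale) in each of 20 libraries, colored by group. Hmox1 and Slc40a1 are highest in the library with the most red cell transcripts (10600 CPM), and Slc7a11 in 2 of the 3 libraries with spinal cord glia transcripts (2854 and 3558 CPM).

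Fth1 was at 3668 CPM or more in every library. It was at 5622, 5149, 6874, and 9440 CPM in SOD-CT, 4619, 5822, and 6648 CPM in SOD-CCI, 6196, 5786, and 7008 CPM in FOD-CT, and 6389, 9864, 7660, and 8480 CPM in FOD-CCI. Injured and sham groups overlapped on both diets (log2FC -0.45, SE 0.29, edgeR adjusted p = 0.485 on SOD and 0.40, SE 0.29, adjusted p = 1 on FOD). Between diets, 3 of the 4 FOD-CCI libraries were above all SOD-CCI libraries (log2FC 0.58, SE 0.29, edgeR unadjusted p = 0.0645, adjusted p = 0.859, and 0.68, SE 0.30, unadjusted p = 0.0397, adjusted p = 0.976 without FOD-CCI replicate 1). The right DRG differed in the same direction. They had 3668, 7939, and 5202 CPM in SOD-CCI rats and 12260, 8794, and 8168 CPM in FOD-CCI rats, without overlap, as in 17.2% of 14007 tested genes, of which 0% were called (log2FC 0.82, SE 0.38, edgeR unadjusted p = 0.0514, adjusted p = 0.702). Sham DRG of the diets differed by -0.27 (SE 0.29, edgeR adjusted p = 0.965), so that the direction was opposite there. Fth1 went with the summed red cell markers over the 20 libraries (r = 0.77), and these were 497 to 1959 CPM in the right DRG of FOD-CCI rats and 55.3 to 139 CPM in those of SOD-CCI rats. When a trend with gene length was removed, the FOD-CCI against SOD-CCI difference was 0.23. The level of Fth1 is uncertain to the extent that reads were shared with LOC679217, a gene that the count table annotates with the ferritin heavy chain protein and whose level followed it at r = 0.96.

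Tfrc, the transferrin receptor, brings iron into the cell. Within rats it was higher on the left in 6 of 6 rats. Among all genes, every rat of the diet went one way in 41% on SOD and in 23.2% on FOD. SOD-CCI rats 1, 2, and 3 had 151, 224, and 239 CPM on the left and 65.6, 136, and 218 CPM on the right, ratios of 2.30, 1.65, and 1.09. FOD-CCI rats 1, 2, and 3 had 103, 261, and 161 CPM on the left and 82.8, 179, and 102 CPM on the right, ratios of 1.24, 1.46, and 1.57. The log2FC was 0.63 on SOD (SE 0.23, edgeR unadjusted p = 0.0203, adjusted p = 0.466) and 0.52 on FOD (SE 0.22, edgeR unadjusted p = 0.0453, adjusted p = 0.706, and 0.59, SE 0.26, without rat 1), below the call rule on both. Against sham DRG no such difference was seen. Tfrc was at 206, 190, 171, and 285 CPM in SOD-CT and at 137, 190, and 194 CPM in FOD-CT, and the log2FC of injured against sham was -0.29 (SE 0.34, edgeR adjusted p = 0.723) on SOD and -0.03 (SE 0.34, adjusted p = 1) on FOD, where it was 0.14 (SE 0.33) without FOD-CCI replicate 1. For right DRG against sham the log2FC was negative, at -0.82 (SE 0.41, edgeR unadjusted p = 0.0677, adjusted p = 0.701) on SOD and -0.49 (SE 0.43, adjusted p = 1) on FOD. Neither was called, and the groups overlapped. Leaving out 1 library, these values ran from -1.26 to -0.49 on SOD and from -0.88 to -0.26 on FOD. These comparisons share libraries and are given side by side only. No sham rat had a right library, so sides could not be compared without injury.

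Right DRG was also set against sham for the other members. The log2FC of Fth1 was -0.44 (SE 0.36) on SOD and 0.65 (SE 0.38) on FOD, where the groups did not overlap, and that of Slc40a1 was -0.39 (SE 0.37) and 0.47 (SE 0.39). For Srxn1 the log2FC of right against sham was -0.01 (SE 0.34) on SOD and -0.42 (SE 0.37) on FOD, and the right DRG of the diets (66.0 to 92.4 CPM on SOD and 31.0 to 65.5 CPM on FOD) did not overlap (log2FC -0.46, SE 0.37, edgeR adjusted p = 0.779). Of 9 tested members, 0 were called in any of the 3 comparisons of right DRG, in each of which 0% of 14007 genes were called, and 0 had an unadjusted p under 0.05, as did 7.06% (SOD right against sham), 1.71% (FOD right against sham), and 7.1% (FOD right against SOD right) of genes. DESeq2 called 52, 0, and 58 genes in them. Groups did not overlap for 0 members and 7.37% of genes in the first, for 1 member (Fth1, higher on the right than in FOD-CT) and 8.82% in the second, and for 2 members, Fth1 and Srxn1, and 17.2% in the third. Between sham groups (FOD-CT against SOD-CT) 0 of 10 members and 0% of all genes were called, 0 members and 3.39% of all genes had an unadjusted p under 0.05, 0 members and 3.01% of genes had groups without overlap, the median log2FC of the members was 0.01, and DESeq2 called 0 genes. Between injured groups 0 members and 0% of genes were called by edgeR and 2 genes by DESeq2, 0 members and 5.4% of genes had an unadjusted p under 0.05, and the median of the members was 0.09. Without FOD-CCI replicate 1, 0 members and 0% of genes were called there, 2 members, Hmox1 and Fth1, and 4.95% of genes had an unadjusted p under 0.05, 4 members and 24.1% of genes had groups without overlap, and the median of the members was 0.15. In the diet by injury interaction, again with 0 members and 0% of genes called, the largest values were those of Slc40a1 (1.78, SE 0.87, edgeR adjusted p = 0.894), Hmox1 (0.89, SE 0.83, adjusted p = 0.894), and Fth1 (0.84, SE 0.40, adjusted p = 0.894). Without the 2 red cell-rich libraries that of Slc40a1 was 0.48 and that of Hmox1 turned to -0.58, and without FOD-CCI replicate 1 that of Fth1 was 0.94 (SE 0.41, edgeR unadjusted p = 0.0371, adjusted p = 0.71). An unadjusted p under 0.05 was reached by 5.01% of genes and 0 members, and DESeq2 called 42 genes.

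**Figure D4:**
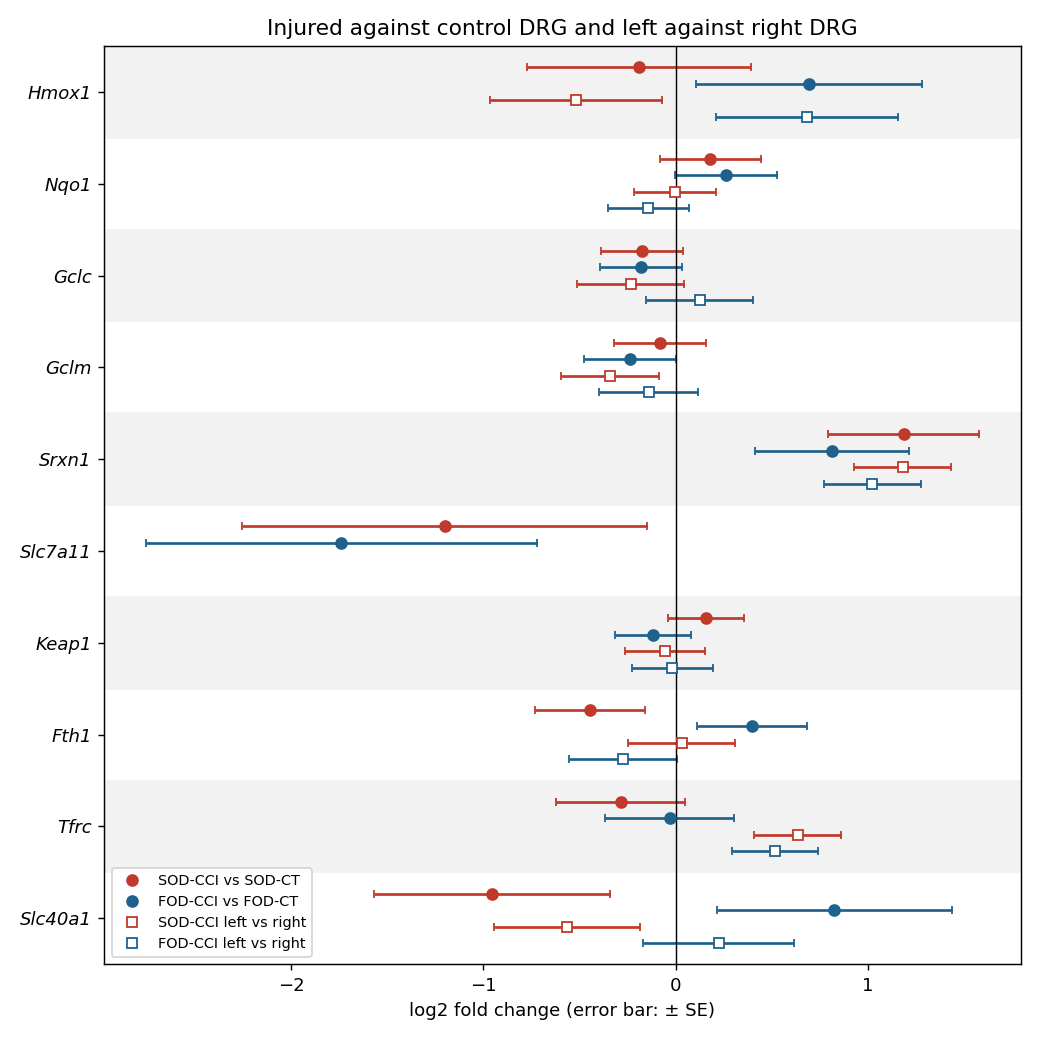
log2 fold change ± SE (horizontal axis) of each member (vertical axis) for injured against sham left DRG (filled circles) and for injured left against uninjured right DRG of the same rats (open squares), on SOD (red) and FOD (blue). Srxn1 is positive in all 4 comparisons (0.81 to 1.19), Tfrc only between sides, and Slc7a11 was not tested between sides.

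Other genes of the pathway were read from lists drawn up around the members. Among 9 NRF2 regulators none was called. In SOD-CCI against SOD-CT 1 was higher and 1 lower at an unadjusted p under 0.05. Of all 14484 genes 13.8% had such a p there and 0% were called. Mafk, a small MAF partner of NRF2, was at 27.2 to 33.8 CPM in SOD-CCI and 10.05 to 26.6 CPM in its sham group, with a log2FC of 0.56 (SE 0.25, edgeR adjusted p = 0.352). It was higher on the left in 6 of 6 rats, and every rat of the diet went one way in 41% of all genes on SOD and 23.2% on FOD. The left to right ratios of Mafk were 1.39, 1.85, and 1.68 on SOD (log2FC 0.65, SE 0.23). On FOD those of Mafk were 2.13, 2.85, and 1.69 (log2FC 1.13, SE 0.24, edgeR adjusted p = 0.452, and 0.0182 by DESeq2, and without rat 1 1.13, SE 0.28, edgeR adjusted p = 0.165). Its relative Mafg was higher on the left on FOD (0.60, SE 0.22) and lower in the right DRG of FOD than of SOD rats (-0.91, SE 0.29). Bach1, a repressor that competes with NRF2, was higher on the left on SOD (0.80, SE 0.31). Cul3, the scaffold of the KEAP1 ubiquitin ligase, was lower in SOD-CCI than in SOD-CT (-0.66, SE 0.30), with 254, 149, 171, and 236 CPM in SOD-CT and 147 to 161 CPM in SOD-CCI, and the value was -0.31 (SE 0.22) without the muscle-rich SOD-CT replicate 1. The edgeR adjusted p-values of these 4 differences lay between 0.352 and 0.697.

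Among the 23 NRF2-linked enzymes none was called by edgeR, which called 0% of all 14484 genes in left DRG. In SOD-CCI against SOD-CT, 15 had a positive log2FC (median 0.20, all genes -0.01) and 2 had an unadjusted p under 0.05 (13.8% of all genes). There 7 of the enzymes did not overlap with sham, all of them above it (17.5% of all genes in either direction). Txnrd1, cytosolic thioredoxin reductase, stood at 56.0, 132, 121, and 90.7 CPM in SOD-CT and at 215, 214, and 226 CPM in SOD-CCI. The groups did not overlap, and the log2FC was 1.00 (SE 0.24, edgeR unadjusted p = 0.00101, adjusted p = 0.266). DESeq2 called it among 594 genes (adjusted p = 0.0219), as did edgeR among 200 genes without the 3 libraries with muscle or spinal cord transcripts (0.90, SE 0.19, adjusted p = 0.064). On FOD it was at 94.6, 104, and 134 CPM in sham and 107, 124, 210, and 176 CPM in injured DRG (log2FC 0.51, SE 0.24, edgeR adjusted p = 1, 0.65 without FOD-CCI replicate 1, and 0.32 without FOD-CCI replicate 3). Left to right ratios were 1.79, 1.70, and 1.53 in SOD-CCI rats (log2FC 0.69, SE 0.20, edgeR adjusted p = 0.335) and 1.28, 0.988, and 1.80 in FOD-CCI rats. Cbr1, a carbonyl reductase, was also higher in SOD-CCI than in SOD-CT (0.65, SE 0.29), and Taldo1, of the pentose phosphate pathway that supplies NADPH, in FOD-CCI than in FOD-CT (0.56, SE 0.18, and 0.62, SE 0.19, without FOD-CCI replicate 1). Their edgeR adjusted p-values were 0.347 and 1. Ephx1, microsomal epoxide hydrolase, went the other way. It was lower on the left in 6 of 6 rats, and every rat of the diet went one way in 41% of all genes on SOD and 23.2% on FOD. The left to right ratios of Ephx1 were 0.365, 0.628, and 0.458 on SOD (log2FC -1.13, SE 0.24, edgeR adjusted p = 0.189, and 0.00472 by DESeq2). On FOD they were 0.571, 0.699, and 0.385 (log2FC -0.88, SE 0.24, edgeR adjusted p = 0.525, and 0.0977 by DESeq2, and -0.95, SE 0.29, without rat 1). Gstm1 differed by 1.32 (SE 0.45) in FOD-CT against SOD-CT, a value that rested on 2 of the libraries with other tissue. It was at 184 CPM in FOD-CT replicate 1 and 50.1 and 51.4 CPM in the other FOD-CT libraries, and at 10.7 CPM in SOD-CT replicate 1 and 36.5 to 48.5 CPM in the others, and the log2FC was 0.51 (SE 0.40) without FOD-CT replicate 1 and 0.27 (SE 0.19) without the 3 libraries with muscle or spinal cord transcripts. Gstp1 (0.76, SE 0.29, and 0.44 without the right library of FOD-CCI rat 1) and Prdx1 (0.84, SE 0.38, and 0.51 without that of rat 3) were higher in the right DRG of FOD than of SOD rats, and Prdx1 was lower in the right DRG of SOD rats than in sham (-0.88, SE 0.36). The edgeR adjusted p of these 4 values lay between 0.697 and 0.965.

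Of the 23 iron handling genes 19 passed the filter in the left DRG comparisons and none was called. In those comparisons 0% of all 14484 genes were called. Aco1, the cytosolic aconitase that doubles as an iron regulatory protein, was higher in SOD-CCI than in SOD-CT (0.55, SE 0.23) and higher in the right DRG than in sham (0.64, SE 0.29). Steap2, a ferrireductase (0.83, SE 0.28), and Cp, the ferroxidase ceruloplasmin (1.00, SE 0.37), were higher on the left on SOD, whereas Cp was lower in the right DRG than in sham (-0.94, SE 0.41, and -0.58 without the right library of SOD-CCI rat 1). Bmp6, an inducer of hepcidin, was lower on the left on FOD (-1.19, SE 0.37, and -1.59 without FOD-CCI rat 1), and its left to right change differed between the diets by -1.20 (SE 0.52, and -1.60 without that rat). Between diets, Tf, transferrin, differed by positive values in FOD-CCI against SOD-CCI (2.36, SE 1.01) and in the right DRG of FOD against SOD rats (2.75, SE 1.23), where Heph, hephaestin, was higher too (2.04, SE 0.89). In FOD-CCI, Tf was at 1258 and 587 CPM in replicates 1 and 2 and at 103 and 145 CPM in the other 2, which lay within the 61.8 to 151 CPM of SOD-CCI, and the difference was 1.46 (SE 0.93) without FOD-CCI replicate 1. The right-side difference of Tf was -0.02 without the right library of FOD-CCI rat 1. Ireb2, the second iron regulatory protein, was lower in FOD-CCI than in SOD-CCI (-0.66, SE 0.29, and -0.49, SE 0.27, without FOD-CCI replicate 1). The interaction of Slc25a37, mitoferrin of red cell precursors, was 3.64 (SE 1.66) and turned to -0.53 without the 2 red cell-rich libraries (0.90 without FOD-CCI replicate 2 alone and 2.22 without SOD-CT replicate 4 alone). The edgeR adjusted p-values of these 12 differences lay between 0.331 and 0.997.

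Hamp, the gene for hepcidin, the hormone that binds ferroportin and has it degraded, did not pass the filter on low counts and was singled out after its values were seen. It had 512, 391, and 399 counts (18.5, 13.2, and 13.8 CPM) in the 3 SOD-CCI libraries and 0, 36, 4, and 0 counts in SOD-CT. In FOD-CCI it had 0, 272, 1296, and 406 counts (0, 9.13, 23.8, and 13.9 CPM) and in FOD-CT 34, 8, and 0 counts. The right DRG had 6, 0, and 0 counts in SOD-CCI rats and 22, 22, and 0 counts in FOD-CCI rats. The 6 injured libraries with high Atf3 held at least 272 counts each, and all 14 others, the library labelled FOD-CCI replicate 1 among them, at most 36. Fitted without the filter, left against right on SOD had a log2FC of 8.18 (SE 1.68, edgeR adjusted p = 0.0243), a size that depends on the handling of zero counts, and FOD had 3.27 (SE 1.92, edgeR adjusted p = 1). Against sham the unfiltered values were 5.15 (SE 1.56, edgeR adjusted p = 0.297) on SOD and 4.85 (SE 1.70, edgeR adjusted p = 0.733) on FOD.

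Of the 12 heme handling genes, 10 were tested in left DRG and none was called, beside 0% of all 14484 genes there. Flvcr1, the heme exporter, which the count table lists as LOC108348225 with that protein as its description, was higher in SOD-CCI than in SOD-CT (0.91, SE 0.29, edgeR adjusted p = 0.266, and 0.0976 by DESeq2), with an interaction of -0.99 (SE 0.41, and -0.86 without FOD-CCI replicate 1). Alas1, the housekeeping first enzyme of heme synthesis, was higher in the same comparison (0.59, SE 0.25). Hmox2, the constitutive heme oxygenase, was higher in right DRG of SOD rats than in sham (0.40, SE 0.18), and Fech, ferrochelatase, in injured DRG of FOD than of SOD rats (0.91, SE 0.42). That value rested on FOD-CCI replicate 2, the library richest in red cell transcripts, where Fech was at 130 CPM beside 38.4 to 41.4 CPM in the other FOD-CCI libraries, and it was 0.26 (SE 0.27) without it. The edgeR adjusted p-values of the last 4 lay between 0.338 and 0.894.

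Of 6 ferroptosis genes beside these, 5 had a positive log2FC in SOD-CCI against SOD-CT (49.3% of all genes), and 4, Gch1, Acsl4, Lpcat3, and the lower Gpx4, had an unadjusted p under 0.05 (13.8% of all genes). Gch1, which makes the antioxidant tetrahydrobiopterin, was at 0 to 6.54 CPM in SOD-CT and 9.01 to 13.5 CPM with CCI on SOD (a log2FC of 2.29, SE 0.95, edgeR adjusted p = 0.329, and 3.69 without SOD-CT replicate 4), and at 1.38 to 3.15 CPM in FOD-CT and 3.42 to 17.1 CPM in FOD-CCI (log2FC 2.71, SE 1.04, edgeR adjusted p = 1, and 3.03, SE 1.03, without FOD-CCI replicate 1). Left against right, fitted without the filter, Gch1 was 1 of 220 genes called on SOD, with a log2FC of 3.87 (SE 0.84, edgeR adjusted p = 0.0371). When 1 rat was left out it passed the filter in only 2 fits. It lost its call in the fit without SOD-CCI rat 2 (3.08). On FOD it was 3.24 (SE 0.85, edgeR adjusted p = 0.205, and 2.22, SE 0.74, in the filtered fit without FOD-CCI rat 1). Acsl4, the ligase that activates polyunsaturated fatty acids before their insertion into phospholipids, was at 55.1 to 73.6 CPM in SOD-CT and 115 to 151 CPM in SOD-CCI. It was at 69.8 to 81.4 CPM in FOD-CT and 53.8 to 174 CPM in FOD-CCI. Without the 3 libraries with muscle or spinal cord transcripts Acsl4 was called on both diets (log2FC 1.08, edgeR adjusted p = 0.0395 on SOD and 0.93, adjusted p = 0.0604 on FOD), and Gch1 on FOD (3.41, edgeR adjusted p = 0.0533). That fit called 200 genes on SOD and 526 on FOD, where only replicates 2 and 3 of FOD-CT were left. Lpcat3, which acts after Acsl4, was higher in SOD-CCI (0.59, SE 0.23, edgeR adjusted p = 0.314). Gpx4, the selenoenzyme that reduces lipid peroxides, was at 385 to 485 CPM in SOD-CCI and 631 to 1042 CPM in its sham group, with a log2FC of -1.14 (SE 0.36, edgeR adjusted p = 0.266, and 0.0527 by DESeq2). In FOD-CCI Gpx4 was at 677 to 1297 CPM, without overlap with SOD-CCI, as in 15.2% of all genes (log2FC 1.10, SE 0.36, edgeR adjusted p = 0.859, and 1.12, SE 0.39, without FOD-CCI replicate 1). Its interaction was 1.44 (SE 0.51, edgeR adjusted p = 0.894, and 0.0953 by DESeq2), 1.46 (SE 0.53) without FOD-CCI replicate 1, and 0.85 (SE 0.38) without the 3 libraries with muscle or spinal cord transcripts.

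The genes whose levels were most like those of each member were found by Pearson's r of log2 CPM over 20 libraries and 14435 genes, which is a description of libraries that share composition. For Srxn1 these were Lcp1 (0.96), Il13ra1 (0.95), and Cacna2d1 (0.95), and for Gclm Anxa5 and Crip2 (both 0.93) and Maea (0.92). For Fth1 they were LOC679217, Mettl9 (both 0.96), and Cav2 (0.93), and for Tfrc Cat (0.88), Rb1cc1 (0.86), and Zfp384 (0.85). Those of Slc40a1 were Car2 (0.86), Prg2 (0.79), and Fech (0.77), and those of Hmox1 Mkrn1 (0.83), Slbp, and Emb (both 0.80). Slc7a11 was most like Col4a5 (0.93), LOC500013 (0.87), and an unnamed transcript (0.84). Keap1 was most like Fbxo31 (0.86), Zswim5 (0.83), and Smpd4 (0.82), Nqo1 like Chmp1a (0.82), RGD1310852 (0.80), and Ctsl (0.79), and Gclc like LOC108351456, Grik1 (both 0.85), and Pctp (0.84). No member was among the 3 genes nearest to another member. Between members the largest values were -0.71 for Gclm with Slc7a11, 0.67 for Gclc with Gclm, and 0.59 for Hmox1 with Slc40a1.

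The genes whose log2 CPM was most like that of each member were found over the 20 libraries among 14435 genes (the 3 highest Pearson r, a description over libraries that share depth and composition). For Srxn1 these were Lcp1, an actin-bundling protein of leukocytes (r = 0.96), Il13ra1 (0.95), and Cacna2d1, a calcium channel subunit (0.95). They were Anxa5 (0.93), Crip2 (0.93), and Maea (0.92) for Gclm, LOC679217 (0.96), Mettl9 (0.96), and Cav2 (0.93) for Fth1, and Col4a5 (0.93), LOC500013 (0.87), and a gene without a symbol (0.84) for Slc7a11. Those of Tfrc were Cat, or catalase (0.88), Rb1cc1 (0.86), and Zfp384 (0.85), and those of Slc40a1 were Car2 (0.86), Prg2 (0.79), and Fech (0.77). The r was 0.79 to 0.86 for the genes nearest to Hmox1 (Mkrn1, Slbp, and Emb), Nqo1 (Chmp1a, RGD1310852, and Ctsl), Gclc (LOC108351456, Grik1, and Pctp), and Keap1 (Fbxo31, Zswim5, and Smpd4).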

How the data were processed

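RNA of 20 whole DRG samples was sequenced. Per the labels and methods, the authors purified poly-A RNA with poly-T beads, used fastp for trimming, HISAT2 for alignment, and featureCounts 1.5.0-p3 for gene counts. The deposited counts are raw and unnormalized, and the authors also deposited FPKM values, used here only to compare levels between genes. Whether counting used strand, and how reads of near-identical copies were placed, is not given in the sources used here. The members and lists, and the alternatives for them, were chosen with earlier results of these data known.

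A gene was tested where 90% or more of a fit's libraries held 10 or more counts, in R 4.3.3 with edgeR 4.0.16 (TMM, two-sided quasi-likelihood F test, Benjamini-Hochberg over all tested genes). Fits covered the 14 left libraries, the 12 libraries of the 6 rats with both sides (rat as a block), and 13 libraries of sham and right DRG. A call needed a fold change of 1.2 or more and an adjusted p up to 0.1. Printed CPM are counts scaled by the library total, and the SE of a log2FC was taken from its F statistic. DESeq2 1.42.0, other scalings, no filter, blocks, and left-out libraries were alternatives. Named from the wider lists were, in each comparison, up to 3 genes per list with the smallest p under 0.05, and exceptions (Hamp, Acsl4) were chosen after their values were seen. For each member the 3 genes of highest Pearson r were named. The steps were tested on simulated data.

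Left and right libraries with the same number come from the same rat, and their deviations from the group means correlated at 0.14 to 0.43 on SOD and 0.11 to 0.36 on FOD. Same-numbered FOD sham and FOD injured libraries (different rats) correlated at 0.19 to 0.43, and FOD-CT and right FOD-CCI libraries at 0.18 to 0.57. Depth limits precision at low counts, and p-values measure the spread between these samples only.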

Additional observations from a re-analysis of the deposited data

Results flagged for a closer look

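Of 28 groups of 4 libraries examined over 14 genes, 4 held a library far from the other 3 (its gap to the nearest exceeded the critical value of Dixon's test). Chance gives about 1 in 20 groups if values are normal and groups independent. Here the same libraries of SOD-CT and FOD-CCI served for all 14 genes. Some of these genes were chosen after their values were seen. The number that chance gives here is therefore not known. Hmox1 reached 86.6 CPM in FOD-CCI replicate 2, where the other FOD-CCI libraries had 14.8 to 22.1 CPM, and this library also had the most red cell transcripts (10600 CPM). Gclm was at 70.6 CPM in the same library and at 58.6 to 58.9 CPM in the other 3. Slc7a11 was at 20.8 CPM in SOD-CT replicate 3 and at 5.19 to 6.89 CPM in the others of its group. Hamp was at 1.53 CPM (36 counts) in SOD-CT replicate 2, with 0 to 4 counts in the others. The part of red cell transcripts in the values of FOD-CCI replicate 2 was not tested.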

How the results depend on the processing

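Each result was refitted under the alternatives. Of 2857 refitted log2FC values of named genes, 2714 kept direction and side of the call rule, 19 were newly called, 1 lost its call (Gch1), 119 changed sign, and 4 moved without a test. Calls gained for Srxn1, Txnrd1, Ephx1, Mafk, Gpx4, Flvcr1, Acsl4, Gch1, and Hamp are given in the report. The cause of the changes below was not tested.

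The number of genes called in SOD-CCI against SOD-CT was 0 and became 594 with DESeq2, 1 with the replicate block, and 200 without the 3 libraries with muscle or spinal cord transcripts (0 to 47 leaving out 1 library, the highest without FOD-CCI replicate 1). In FOD-CCI against FOD-CT it was 0 and became 21 and, without the 3 libraries, 526 (0 to 43 leaving out 1, the highest without FOD-CCI replicate 1). DESeq2 called 2 genes in FOD-CCI against SOD-CCI, 42 in the interaction, 52 for SOD right against sham, and 58 for FOD right against SOD right. Left against right, 19 genes on SOD became 472 with DESeq2, 220 without the filter, and 0 with no replicate block (0 to 471 leaving out 1 rat), and 2 on FOD became 264, 61, and 0 (0 to 137). The difference between diets in this change went from 0 to 60 with DESeq2 and 3 without the filter. The replicate block changed no other count by over 1.5 times.

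Signs turned as follows, each value being a log2FC. In SOD-CCI against SOD-CT, Hmox1 was 0.13 with the replicate block and 0.27 without the 2 red cell-rich libraries (an alternative chosen after seeing the data), and Gclm was 0.027 on library totals. In FOD-CCI against FOD-CT, Hmox1 was -0.30 and Slc40a1 -0.21 without the red cell-rich libraries, and Slc7a11 was 1.72 without the 3 libraries. In FOD-CCI against SOD-CCI, Gclc was -0.043 on library totals and -0.14 without the red cell-rich libraries, and Slc7a11 was -0.11 with the replicate block. In FOD-CT against SOD-CT, Nqo1 was -0.04, Srxn1 0.071, and Keap1 0.00 without the red cell-rich libraries, Gclm was 0.074 and Srxn1 0.018 on library totals, Srxn1 was 0.078 and Slc7a11 -0.088 with the replicate block, and Gclm was 0.20 and Slc7a11 -2.73 without the 3 libraries. In the interaction, Hmox1 was -0.58, Tfrc -0.18, and Slc25a37 -0.53 without the red cell-rich libraries, Nqo1 was -0.10 on library totals and without the 3 libraries, Gclc was 0.031 with DESeq2 and with RLE size factors, 0.007 without the filter, and 0.10 without the 3 libraries, and Slc7a11 was 2.91 without them. Left against right, Nqo1 was 0.048 on library totals and Fth1 -0.027 with no replicate block on SOD, and Keap1 was 0.029 without the filter on FOD. The change between diets was -0.032 for Keap1 on library totals and 0.036 for Tfrc with no replicate block. For SOD right against sham, Srxn1 was 0.055 on library totals, 0.026 without the filter, and 0.21 with the replicate block. With a length trend removed, Fth1 was -0.08 in SOD-CCI against SOD-CT, 0.23 in FOD-CCI against SOD-CCI, and 0.29 in the interaction.

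Leaving out 1 library (or rat) gave these ranges for values that changed sign. In SOD-CCI against SOD-CT, Hmox1 ran from -0.40 to 0.27. In FOD-CCI against FOD-CT, Hmox1 ran from -0.31 to 0.99, Gclm from -0.52 to 0.052, Slc7a11 from -2.29 to 1.99 (without FOD-CT replicate 1), Tfrc from -0.35 to 0.14, and Slc40a1 from -0.21 to 1.13. In FOD-CCI against SOD-CCI, Gclc ran from -0.14 to 0.15. In FOD-CT against SOD-CT, Nqo1 ran from -0.29 to 0.30, Gclc from -0.069 to 0.11, Gclm from -0.30 to 0.27, Srxn1 from -0.23 to 0.16, Slc7a11 from -2.74 (without FOD-CT replicate 1) to 1.54, and Keap1 from 0.00 to 0.22. In the interaction, Hmox1 ran from -0.11 to 1.18, Nqo1 from -0.16 to 0.44, Gclc from -0.17 to 0.12, Gclm from -0.44 to 0.14, Slc7a11 from -1.09 to 3.19, and Tfrc from -0.064 to 0.43. Left against right on SOD, Nqo1 ran from -0.18 to 0.24, Keap1 from -0.14 to 0.043, and Fth1 from -0.15 to 0.30, and on FOD Hmox1 from -0.031 to 1.32, Gclc from -0.11 to 0.43, Gclm from -0.53 to 0.094, Keap1 from -0.27 to 0.12, Fth1 from -0.50 to 0.031, and Slc40a1 from -0.36 to 0.70. In the change between diets, Nqo1 ran from -0.38 to 0.049, Gclm from -0.18 to 0.43, Srxn1 from -0.46 to 0.057, Keap1 from -0.22 to 0.18, Fth1 from -0.56 to 0.003, and Tfrc from -0.34 to 0.14. For SOD right against sham, Hmox1 ran from -0.008 to 0.83, Nqo1 from -0.06 to 0.33, Gclc from -0.064 to 0.23, and Srxn1 from -0.19 to 0.15. For FOD right against sham, Slc7a11, -0.01 without the filter, was 0.035 and 0.036 in the 2 fits in which it passed, Gclc ran from -0.43 to 0.067, Gclm from -0.25 to 0.37, and Keap1 from -0.23 to 0.051. For FOD right against SOD right, Hmox1 ran from -0.56 to 0.002, Nqo1 from -0.07 to 0.45, Gclc from -0.48 to 0.041, Gclm from -0.50 to 0.10, Keap1 from -0.31 to 0.004, Tfrc from -0.56 to 0.27, and Tf from -0.015 to 3.25 (lowest without the right library of FOD-CCI rat 1).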
